A study of Rattus norvegicus with 9 samples.

Results

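The genes described here encode the relay between receptors and cyclic nucleotides: the subunits of heterotrimeric G proteins, the regulators of G protein signalling (RGS proteins), the adenylate and guanylate cyclases, and the phosphodiesterases. They were chosen by gene symbol alone, as every annotated probe whose symbol begins with the stem of one of these families. Rgs9, Adcy5 and Pde10a were left out of the selection because they are described with the striatal genes. The selection held 65 of the 10412 genes with a named probe, on 66 probes, since Gnas had 2 probes. It comprised 14 alpha, 4 beta and 6 gamma subunits, 13 RGS genes, 5 adenylate cyclases, 3 guanylate cyclase subunits and 20 phosphodiesterases.

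A receptor that binds its ligand makes the alpha subunit of its G protein exchange GDP for GTP and part from the beta and gamma subunits, and each of these then acts on its own effectors. Alpha s subunits stimulate and alpha i subunits inhibit adenylate cyclase, and alpha q subunits activate phospholipase C beta. RGS proteins end the signal by speeding GTP hydrolysis, and phosphodiesterases degrade the cyclic AMP and cyclic GMP that the cyclases make.

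Cortex was taken from 4 male and 5 female rats of the outbred Sprague-Dawley strain, and each animal was measured on 1 Illumina bead array. All 9 had received 145 cGy from a caesium-137 source in the womb on gestation day 17, a treatment used to model cortical dysplasia, and were killed at an age of 60 days. Unirradiated rats were not analysed here, so no value given below measures an effect of radiation, and sex is the only contrast that the labels define. The titles also carry 1 of 3 numbers of unstated meaning. The first number is that of males 1 and 2 and female 1. The second belongs to males 3 and 4 with females 2 and 3. The last belongs to females 4 and 5 alone. The labels do not tie animals to litters, so animals within a title number may not be independent.

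Each array gave an intensity for 22517 probes, with a median of 47.9 to 57.2 per array. A background bound of 46.6 to 54.1 was set for each array at the 99th percentile of the 6605 probes that the authors had left out of their value table. Between 11857 and 12392 probes exceeded it. On the first principal component, with 33.5% of the variance, female 1, male 2 and female 3 lay at 16.1 to 19.0 and the other 6 arrays at -13.1 to -4.53. Of the 10 listed markers of cortical glutamatergic neurons, 7 had a named probe, and all 7 exceeded the bound on all arrays, as did the 7 interneuron markers with a named probe. Values are log2 of the background-corrected, quantile-normalised intensity, and the level of one probe is not comparable with that of another.

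In the set, 45 of the 65 genes (69.2%) exceeded the bound on all 9 arrays, against 69.1% of all named genes. Another 15 did so on some arrays and 5 on none. Measured on every array were 9 of 14 alpha subunits, 3 of 4 beta, 5 of 6 gamma, 10 of 13 RGS genes, 4 of 5 adenylate cyclases, 1 of 3 guanylate cyclase subunits and 13 of 20 phosphodiesterases. The 5 genes at background everywhere were Gna13, an alpha subunit of the alpha 12 class, Rgs1, Rgs16 and Rgs18, RGS genes known from blood and immune cells, and Pde7b, a cyclic AMP phosphodiesterase. In all, 54 genes exceeded the bound on at least 4 arrays and were tested.

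Promoters are shown for a few neuronal genes of the set that carry letters of the cyclic AMP response element, the site of CREB, through which cyclic AMP reaches transcription. The windows are from RefSeq, build GRCr8, and run from 250 bases before to 50 bases after a gene start. All 65 genes matched a RefSeq gene and 50 had a window, for 63 windows in all. The full element TGACGTCA, which reads the same on both strands, stood in 1 of the 63 windows (1.59%), that of Gnao1, against 1.83% of all 33469 windows. The shorter TGACG, which the full element contains and which was searched on both strands, stood in 14 windows (22.2%) against 21.2% of all. Capitals mark the element, which in Rgs2 and Rgs4 is read from the other strand. Gnao1 lies at chr19:11198511-11198598, minus strand. Gnaq lies at chr1:222852385-222852452, plus strand. Rgs2 lies at chr13:58352838-58352916, minus strand, and Rgs4 at chr13:84475993-84476077, minus strand.
Gnao1: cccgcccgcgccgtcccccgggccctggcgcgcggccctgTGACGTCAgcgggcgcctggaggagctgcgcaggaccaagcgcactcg
Gnaq: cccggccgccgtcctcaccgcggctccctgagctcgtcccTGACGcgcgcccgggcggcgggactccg
Rgs2: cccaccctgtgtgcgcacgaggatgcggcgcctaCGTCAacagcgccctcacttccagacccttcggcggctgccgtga
Rgs4: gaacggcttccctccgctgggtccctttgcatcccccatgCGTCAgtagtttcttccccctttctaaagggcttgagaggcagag
The element began 28 bases before the start in Gnaq, 216 in Rgs2 and 153 in Rgs4. GGGCGG, the core letters of an SP1-type GC box, was the most frequent of the motifs searched, in 31 windows (49.2%) against 33.1% of all on either strand. TGACTCA, an AP-1-type site, stood in 5 windows (7.94%) against 4.63% of all. These matches describe the letters of the windows and locate no bound factor.

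Among the inhibitory alpha subunits, Gnao1, the most abundant alpha subunit of neurons, read 11.93, 12.10, 11.69 and 11.71 in males 1 to 4 and 12.28, 11.63, 12.01, 11.76 and 11.75 in females 1 to 5. Gnai2, an inhibitor of adenylate cyclase found in most cells, spanned only 10.80 to 11.25. Gnaz, the inhibitory subunit resistant to pertussis toxin, spanned 9.60 to 9.91. The sexes overlapped for all of these genes.

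Gnai1 and Gnai3, close relatives of Gnai2, varied far more between animals. Gnai1 read 7.43, 6.68, 7.39 and 7.07 in the males and 7.97, 7.09, 6.96, 6.66 and 7.03 in the females, a 2.48-fold range with an SD within sex of 0.44. Gnai3 read 8.58, 9.48, 8.68 and 8.86 in the males and 9.18, 8.71, 9.59, 8.54 and 8.57 in the females, a 2.07-fold range with an SD of 0.43. They did not vary together in all animals: male 2 was next to lowest for Gnai1 and next to highest for Gnai3. Female 4, however, was the lowest for both.

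The stimulatory subunit Gnal, also called alpha olf, couples dopamine and adenosine receptors to adenylate cyclase in the striatum, and odorant receptors in the nose. It read 6.40, 5.48, 6.28 and 5.56 in the males and 6.89, 5.92, 6.23, 6.70 and 6.53 in the females, a 2.65-fold range. Males 2 and 4 were the lowest of the 9 animals and female 1 the highest. Gnas, the general stimulatory subunit, was close to background on both probes, which exceeded the bound on 6 and on 2 arrays. The probe that stands for the gene spanned 4.91 to 5.16. How well these probes detect Gnas transcripts was not tested.

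Of the subunits that activate phospholipase C beta, Gnaq read 6.42, 6.57, 6.19 and 6.01 in the males and 6.55, 6.15, 6.47, 5.85 and 6.36 in the females. Gna11, its near relative, was among the steadiest genes of the set, between 6.70 and 7.00 with an SD of 0.098. Gna14 exceeded the bound on 3 arrays and Gna15, known from blood cells, on 7. Gna12, of the alpha 12 class, read 6.31, 7.10, 6.39 and 6.12 in the males and 6.94, 6.71, 6.64, 6.17 and 6.41 in the females.

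Gnb1, a beta subunit of most neuronal G proteins, spanned 11.97 to 12.37. Gnb5, the divergent beta subunit that pairs with RGS proteins of the R7 group, spanned 8.46 to 8.98, and Gnb2 spanned 5.50 to 6.11. Among the gamma subunits, Gng7, the partner of Gnal in the striatum, read 7.63, 6.86, 7.60 and 7.02 in the males and 7.73, 7.50, 7.56, 7.19 and 7.96 in the females. Males 2 and 4 were again the lowest animals. Gng11 read 7.07, 6.68, 7.55 and 7.14 in the males and 7.28, 6.74, 7.24, 7.20 and 6.68 in the females, with the peak in male 3. The score of 4 endothelial markers was also highest in male 3, at 0.11. It was next highest in male 2, at 0.043, where Gng11 was lowest, as in female 5. Of these markers Tek was highest in male 3, and Cldn5, Flt1 and Tie1 were highest in other animals. The part of endothelial RNA in the Gng11 values was not tested. A marker score averages, over the markers, each animal's departure from the mean log2 value of the probe. Gng10 and Gng12, both found in many cell types, spanned 8.03 to 8.65 and 5.33 to 5.66. The values of the Gng10 probe were repeated on all arrays by 1 other probe, unnamed here. Gng13, known from taste cells and retina, spanned 5.16 to 5.64, and Gng8 exceeded the bound on 5 arrays.

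**Figure D1:**
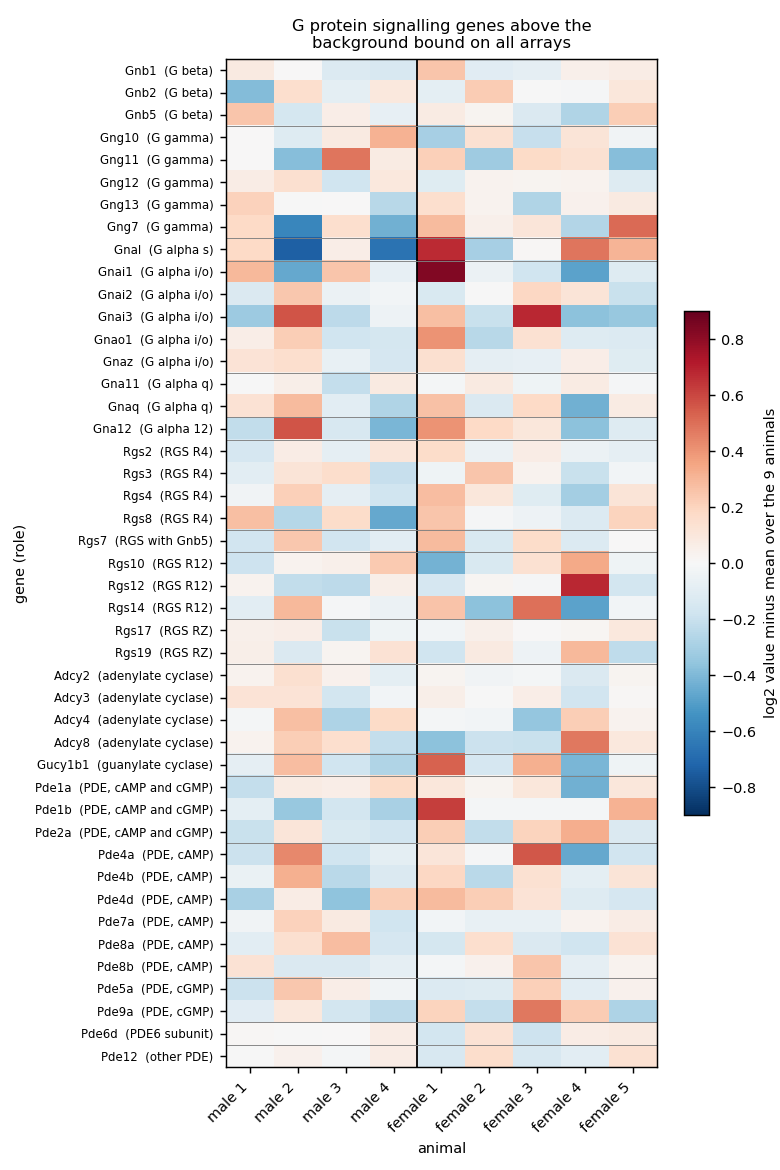
Log2 value minus the gene's mean over the 9 animals (colour, red for higher) for the 45 genes above the background bound on all arrays; rows are genes by role, columns are animals, and the black line parts males from females. Gnal and Gng7 were lowest in males 2 and 4, while Gnai3, Gnao1 and Pde4a were highest in female 1, male 2 and female 3.

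RGS4 and RGS2 are RGS proteins of the R4 group, the former abundant in cortical pyramidal neurons and the latter a brake on alpha q. Rgs4 read 11.69, 11.93, 11.63 and 11.53 in the males and 11.99, 11.82, 11.60, 11.41 and 11.83 in the females. Rgs2 was steadier, at 10.11 to 10.43. Of the same group, Rgs3 spanned 7.83 to 8.28, and Rgs8 read 6.80, 6.28, 6.70 and 6.07 in the males and 6.79, 6.53, 6.49, 6.41 and 6.73 in the females. Males 4 and 2 were lowest for Rgs8, as for Gnal and Gng7. Rgs7, of the R7 group that pairs with Gnb5, spanned 10.78 to 11.24.

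The R12 group holds Rgs10, known from microglia as well as neurons, and Rgs12 and Rgs14, which also bind inactive alpha i. Rgs10 read 9.26, 9.47, 9.49 and 9.68 in the males and 9.02, 9.31, 9.58, 9.79 and 9.40 in the females. Its highest and lowest animals, female 4 and female 1, were also highest and lowest for the score of 8 microglial markers, at 0.21 and -0.22, whose part was not tested. Of these markers only Cx3cr1 was highest in female 4, and only Aif1, C1qc and Tmem119 were lowest in female 1. Rgs12 lay between 7.81 and 8.10 in 8 animals and at 8.73 in female 4. Rgs14, known from hippocampal pyramidal neurons, read 7.84, 8.23, 7.92 and 7.88 in the males and 8.19, 7.56, 8.43, 7.45 and 7.91 in the females. Rgs17 and Rgs19, of the RZ group that acts on alpha z, spanned 7.58 to 7.87 and 6.30 to 6.82, and Rgs17 was among the steadiest genes of the set.

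Adcy2, an adenylate cyclase stimulated by beta and gamma subunits, had the smallest spread of the 45 genes, with 10.45 to 10.72 over the animals and an SD within sex of 0.079. Adcy8, the cyclase switched on by calcium and calmodulin, read 7.14, 7.33, 7.25 and 6.89 in the males and 6.73, 6.91, 6.91, 7.57 and 7.20 in the females. Adcy3, the cyclase of neuronal cilia and olfactory neurons, spanned 7.97 to 8.26, and Adcy4 spanned 5.44 to 6.06. Adcy10, the bicarbonate-sensing cyclase, exceeded the bound on 3 arrays.

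Gucy1b1, the beta subunit of the nitric oxide receptor that makes cyclic GMP, read 10.41, 10.77, 10.31 and 10.22 in the males and 11.02, 10.34, 10.81, 10.08 and 10.45 in the females. Female 1, female 3 and male 2 were the highest. The other guanylate cyclase genes were near background: Gucy1b2 exceeded the bound on 1 array, and Gucy2e, a membrane cyclase of the retina, on 3 arrays, all of females.

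The phosphodiesterases that degrade both cyclic nucleotides include the calmodulin-activated Pde1 enzymes and Pde2a, which cyclic GMP stimulates. Pde1b, abundant in the striatum, read 6.55, 6.30, 6.47 and 6.35 in the males and 7.26, 6.62, 6.62, 6.62 and 6.95 in the females. Every male lay below every female. Pde1a spanned 6.44 to 7.04 and Pde2a 9.55 to 10.09. Pde1c exceeded the bound on 4 arrays, and Pde3b, which cyclic GMP inhibits, and Pde11a on 7 arrays each.

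Among the enzymes specific for cyclic AMP, Pde4a, a target of rolipram, read 6.89, 7.52, 6.91 and 7.00 in the males and 7.20, 7.07, 7.65, 6.62 and 6.91 in the females, a 2.03-fold range. Pde4b spanned 7.47 to 8.03 and Pde4d 5.92 to 6.57. Pde7a spanned 6.61 to 7.00, Pde8a 5.24 to 5.70 and Pde8b 5.47 to 5.84. Of the enzymes specific for cyclic GMP, Pde9a spanned 8.53 to 9.29 and Pde5a, the target of sildenafil, 5.10 to 5.54. Pde12, which acts on RNA tails in mitochondria and not on cyclic nucleotides, spanned 5.13 to 5.43. Pde6d, which carries prenylated proteins as well as binding the photoreceptor phosphodiesterase, spanned 8.49 to 8.80.

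No gene of the set differed between the sexes after adjustment. By limma's moderated test with Benjamini-Hochberg adjustment over all probes, 0 of the 54 tested genes and 0 of 12370 probes (0%) passed an adjusted p of 0.05. At an unadjusted p under 0.05 there were 2 of the 54 (3.7%), against 240 of all probes (1.94%), and both were lower in males, against 1.17% of all probes that were lower in males at that p. Of the set, 24 genes were higher and 30 lower in males, with a median difference of -0.01 against 0.00 over all probes. Under median scaling in place of quantile normalisation 74.1% in place of 55.6% of the genes were lower in males. The median moved to -0.04 for the genes and to -0.03 for all probes. Of all tested probes 49.1% were lower in males under quantile normalisation, and their share under median scaling is not given here.

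Pde1b was 0.40 lower on the log2 scale in males (-0.40 ± 0.14 SE, unadjusted p = 0.0122, limma, adjusted p = 1.00), with means of 6.42 ± 0.11 (SD, n = 4) and 6.82 ± 0.29 (SD, n = 5). Among the 54 tested genes it alone had sexes that did not overlap (1.85%), against 0.792% of all probes tested. The untested Pde7b did not overlap either, at 4.50 to 4.80 in males and 4.88 to 5.03 in females, but was at background on every array. Within the first title number the difference of Pde1b was -0.83 and within the second -0.21, and the last number held only females. Gnal differed by -0.52 ± 0.23 SE (unadjusted p = 0.0388, limma, adjusted p = 1.00), with means of 5.93 ± 0.48 (SD, n = 4) and 6.45 ± 0.38 (SD, n = 5), and the sexes overlapped. Among animals of the first title number its difference was -0.95, and among those of the second -0.16. With the title number as a block, limma gave -0.46 for Pde1b (unadjusted p = 0.00975) and -0.47 for Gnal (unadjusted p = 0.0867).

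The next genes by p were Gng7 at -0.31 ± 0.19 SE (limma, unadjusted p = 0.121), Pde2a at -0.18 ± 0.13, Pde9a at -0.18 ± 0.15 and Pde4d at -0.16 ± 0.14, all lower in males with overlapping sexes. Single animals moved these values: Gng7 was -0.17 without male 2, Pde2a -0.12 without female 4, Pde9a -0.08 without female 3 and Pde4d -0.07 without male 3. On the other side stood Pde6h, the inhibitory subunit of the cone phosphodiesterase, at 0.15 ± 0.10, Gng10 at 0.13 ± 0.12, Gnat2 at 0.16 ± 0.23, Pde8a at 0.08 ± 0.12, Adcy2 at 0.06 ± 0.08 and Gng12 at 0.06 ± 0.09. Gng10 was 0.05 without male 4. None of these 10 passed even the unadjusted threshold. Gnat2 turned to -0.16 without male 3, and Pde8a to -0.02 without female 1, male 2 and female 3.

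**Figure D2:**
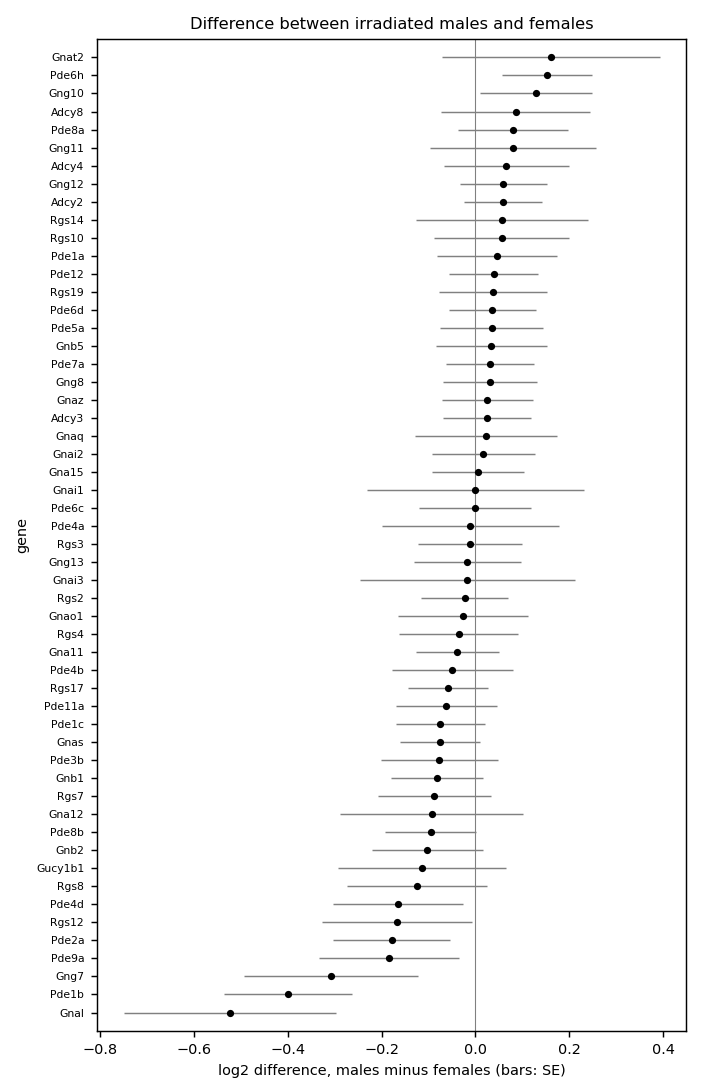
Log2 difference between males and females (points, males minus females) with its standard error (bars) for the 54 tested genes, sorted by size. Gnal at -0.52 and Pde1b at -0.40 lie farthest below 0, and no adjusted p passed 0.05.

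Gnal, Gng7, Pde1b and Rgs8 were singled out after their values were seen, as lowest in males 2 and 4. The first 3 are known to be enriched in the striatum, which lies beneath the cortex. All 13 striatal markers with a named probe, of 17 listed, exceeded the bound on all 9 arrays. Among the males, the striatal score was -0.39 in male 2 and -0.37 in male 4 against 0.06 in male 1 and 0.13 in male 3. In the females it was 0.51, -0.11, 0.13, -0.36 and 0.41. The summed log2 level of the markers was 103.6 to 110.3 in males and 103.9 to 115.2 in females, and no defining marker was at background. The part of striatal tissue in these values was not tested, and in bulk tissue fewer cells of a type and less RNA per cell cannot be told apart.

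The relatives Rgs9, Adcy5 and Pde10a belong to the striatal markers. Rgs9, the R7 group member of striatal neurons, read 8.66, 7.68, 8.77 and 7.63 in the males and 9.24, 8.41, 8.68, 7.43 and 9.35 in the females. Males 2 and 4 and female 4 were its lowest animals. Female 4 was lowest for Rgs9 but next to highest for Gnal, at 6.70. Adcy5, a cyclase of striatal neurons, read 7.74, 7.62, 7.70 and 7.34 in the males, with males 2 and 4 lowest. Pde10a, a phosphodiesterase of the same neurons, read 8.96, 8.97, 8.83 and 8.95 in the males and so was not lowest in males 2 and 4. Among the males, males 2 and 4 were also lowest for Drd1, Ppp1r1b, Penk, Tac1, Adora2a, Rasd2 and Pdyn. The markers did not all follow Rgs9: the retinoid receptor gene Rarb was highest of all animals in male 2, at 10.41. The dopamine receptor gene Drd2 read 6.75, 6.84, 6.87 and 6.77 in the males, and Foxp1 read 7.64, 7.52, 7.50 and 7.66. For limma's test between the sexes, Adcy5 stood at -0.25 ± 0.11 (unadjusted p = 0.0509) and Pde10a at -0.39 ± 0.18 (unadjusted p = 0.0496).

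**Figure D3:**
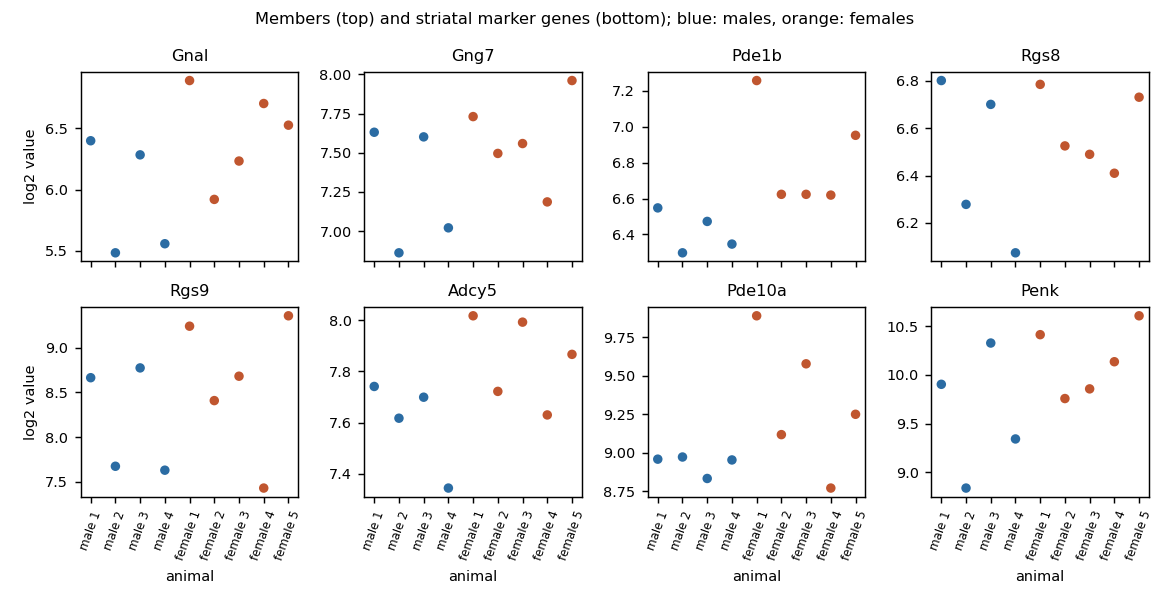
Log2 value of each animal for Gnal, Gng7, Pde1b and Rgs8 (top) and for the striatal markers Rgs9, Adcy5, Pde10a and Penk (bottom); points are animals, blue for males and orange for females, and each panel has its own axis. Males 2 and 4 lie lowest among the males for the 4 genes on top, and female 4 is low for Rgs9 at 7.43 but not for Gnal at 6.70.

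Between the 3 title numbers, with sex as a covariate, 0 of the 54 genes and 0 of all probes (0%) passed limma's F test after adjustment, and the lowest adjusted p in the set was 0.517. At an unadjusted p under 0.05 there were 6 genes (11.1%), against 9.23% of all probes. They were Gucy1b1 (unadjusted p = 0.0139 in limma's F test), Gnao1 (0.0150), Adcy8 (0.0228), Gna12 (0.0278), Rgs10 (0.0401) and Gnaq (0.0452). Means over the title numbers, in order, were 10.73, 10.42 and 10.27 for Gucy1b1, and 12.10, 11.76 and 11.75 for Gnao1. They were 6.78, 6.47 and 6.29 for Gna12, and 6.51, 6.21 and 6.10 for Gnaq. Adcy8 was highest in the last, at 7.39, and Rgs10 lowest in the first, at 9.25. Without female 1, or without female 1, male 2 and female 3, 0 genes had an unadjusted p under 0.05.

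The arrays of female 1, male 2 and female 3, which stood apart on the first principal component, were the highest 3 for 8 of the 45 genes (17.8%), against 12% of 9995 probes. These were Gnai3, Gnao1 and Gnaq, the RGS genes Rgs7 and Rgs14, Gucy1b1, Pde4a and Pde4b. For Gnai3 they read 9.18, 9.48 and 9.59 against 8.54 to 8.86 elsewhere, and for Rgs14 8.19, 8.23 and 8.43 against 7.45 to 7.92. The same arrays were the lowest 3 for 2 genes (4.44%), Gng10 and Pde6d, against 12.6% of probes. Because title numbers and these arrays overlap, with 2 of the 3 in the first title number, their values cannot be told apart there. By single animals, male 2 was the highest for 11 genes (24.4%, against 11.2% of probes) and female 1 for 10 (22.2%, against 15.6%), and female 4 was the lowest for 12 (26.7%, against 14.6%).

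The spread between animals of the same sex was moderate. The SD within sex had a median of 0.20 over the 45 genes, against 0.17 over all probes above the bound on all arrays, with quartiles of 0.13 and 0.23. Among them, 9 genes (20%) were in the top 10% of all such probes and 2 in the bottom 10%. The widest spreads belonged to Gnai1 (0.44), Gnai3 (0.43), Gnal (0.43), Gna12 (0.36), Pde4a (0.35), Gng7 (0.34), Rgs14 (0.33), Gucy1b1 (0.32), Gng11 (0.32) and Rgs12 (0.28). The narrowest belonged to Adcy2 (0.079), Rgs17 (0.086), Gna11 (0.098) and Gng12 (0.11).

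**Figure D4:**
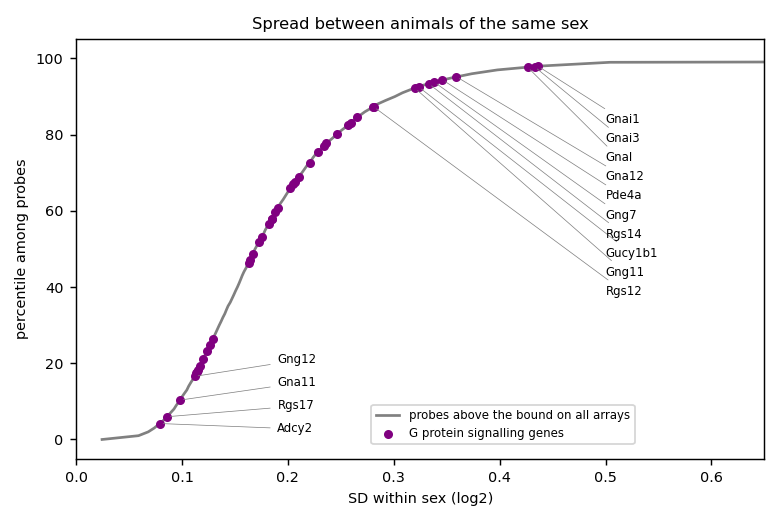
SD within sex on the log2 scale (x axis) against its percentile among probes above the bound on all arrays (y axis); the grey line is all such probes and points are the 45 genes, with the widest and narrowest named. Gnai1, Gnai3 and Gnal lie at the upper end, near 0.43, and Adcy2 and Rgs17 at the lower end.

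Male 3 carried a signal of its own in the transducin genes, a pattern picked out after the values were seen. Gnat2, the alpha subunit through which cone opsins signal, read 5.10, 5.06, 6.35 and 5.12 in the males and 5.29, 5.28, 4.92, 5.42 and 5.33 in the females. As intensities, male 3 was at 93.4 and the other animals at 44.5 to 62.1, close to the bound. Male 3 led the next animal by 0.94 on the log2 scale. Gnb3, the beta subunit of cone transducin, was above the bound in male 3 only, with an intensity of 51.0 against a bound of 47.3, and led the next animal by 0.33. By the lead of male 3, Gnat2 had rank 2 and Gnb3 rank 26 among the 15060 probes above the bound on at least 1 array. The ranks rest on the values by which the pattern was picked, and Gnb3 entered the ranking through male 3 alone. They are a description and not a test.

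Sag, the arrestin of photoreceptors and pineal cells, read 5.49 in male 3 against 4.24 to 4.54 in the other animals. Prph2, a protein of photoreceptor discs, led there by 0.47. Like Gnb3, both exceeded the bound in male 3 alone. Other genes of these cells did not lead in male 3: the cone opsin Opn1sw and the melatonin enzyme Aanat fell short of the highest other animal by 0.17 and 0.18, and were below the bound there. Of 7 listed retinal and pineal markers 3 had a named probe and 0 exceeded the bound on all arrays. Among the photoreceptor phosphodiesterase subunits, Pde6h was at 5.30 in male 3 against 4.88 to 5.27 elsewhere, the cone catalytic subunit Pde6c at 5.26 against 4.91 to 5.52, and the rod subunit Pde6b exceeded the bound in 1 female. The gene next to Gnat2 on its chromosome, with 0 coding genes between them, is Gnai3, which was unremarkable in male 3 at 8.68. The part of retinal or pineal RNA in the Gnat2 and Gnb3 values was not tested.

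**Figure D5:**
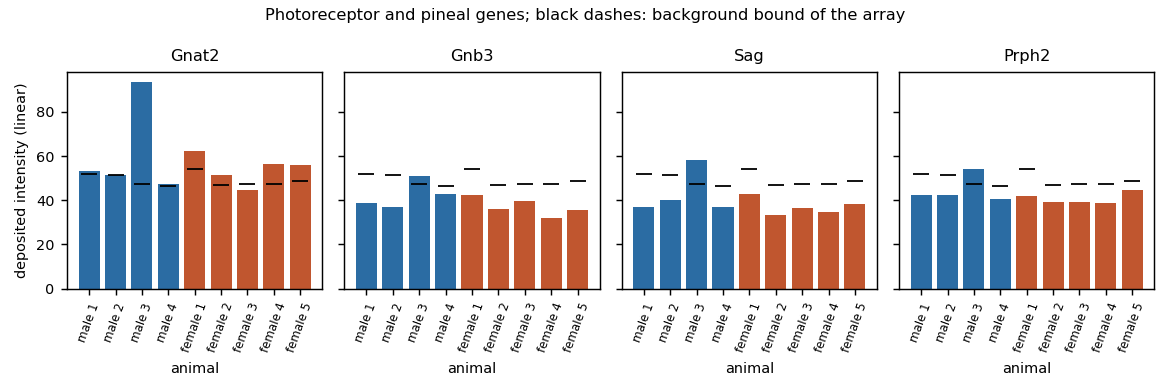
Deposited intensity on a linear scale (bars, from 0) of Gnat2, Gnb3, Sag and Prph2 in each animal, blue for males and orange for females, with the background bound of each array as a black dash. Male 3 is highest in every panel, at 93.4 for Gnat2 and 58.4 for Sag, and Gnb3, Sag and Prph2 exceed the bound there alone.

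Other genes of the pathway, listed apart from the set, gave no calls either. Of 66 listed genes, which include protein kinase A subunits and anchors, CREB family factors, phospholipases, receptor kinases, arrestins and G protein chaperones, 50 had a named probe and 48 were tested. None passed limma's test between the sexes or the F test between title numbers after adjustment, and the counts at an unadjusted p under 0.05 were 2 and 5 of the 48, where all probes had shares of 1.94% and 9.23%. Of the 48, 20 were higher and 28 lower in males, with a median difference of -0.03, where 49.1% of all tested probes were lower. Ric8b, the chaperone of alpha s and alpha olf, read 5.83, 5.57, 5.89 and 5.45 in the males and 6.07, 5.92, 5.82, 5.80 and 6.06 in the females (-0.25 ± 0.11 SE, limma, unadjusted p = 0.0473, adjusted p = 1.00). Males 2 and 4 were its lowest animals, as they were for Gnal. Plcb3, a phospholipase C beta that alpha q activates, was near background and exceeded the bound on 5 arrays. Its sexes did not overlap (as for 0.792% of all probes), at 5.17 to 5.24 in males and 4.86 to 5.14 in females (0.27 ± 0.09 SE, limma, unadjusted p = 0.00775, adjusted p = 1.00). Females 1, 2, 4 and 5 read 4.88, 4.94, 4.86 and 4.87. Because 4 arrays above the bound sufficed for testing, a probe near background could enter through the higher sex. The p-value and the lack of overlap therefore cannot decide whether Plcb3 differs between the sexes.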

How the data were processed

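Cortex RNA of 9 irradiated rats was hybridised to Illumina bead arrays, 1 per animal. Per the labels' protocols, 250 ng of RNA was amplified and labelled with biotin. The authors deposited 1 intensity per probe and array on a linear scale for 22517 probes, without detection p-values; how the scanner handled background is not given in the sources used here. Also deposited by the authors was a table of log2 values for 15912 probes, whose columns kept the rank order of the intensities (rank correlation 1, slopes of 0.974 to 1.04) around a median of 6.13. Its values are log2, its rows are not centred, and the distribution used to normalise it is not known. Columns of no sample numbered 0.

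Intensities were corrected with normexp (offset 16), quantile normalised and log2 transformed with limma 3.58.1 (R 4.3.3). The planned detection p-values were replaced by a bound at the 99th percentile of the 6605 probes absent from the value table, and a probe entered the tests when it exceeded this bound on 4 or more arrays. Sexes were compared with lmFit and eBayes, two-sided, and title numbers with limma's F test, sex being a covariate, with Benjamini-Hochberg adjustment over all 12370 probes. These p-values set a difference against the spread between the animals sampled, estimated with information shared over probes. They treat the animals as independent, which the labels do not establish, and the number of arrays limits precision. The code was checked on simulated data.

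Gene names came from the platform annotation, which may be old; RefSeq symbols (GRCr8) were the same for all 65 genes. The probe with the highest mean stood for a gene. Described by rule were for each direction the 6 genes of smallest p in the comparison of the sexes, the 6 with the smallest p between title numbers, the 10 with the largest and the 4 with the smallest SD within sex, and genes named by role. Members, pathway list and marker lists were chosen with earlier results of these data known. Replicate numbers only name the animals. Alternatives were the background correction, offset, scaling, the authors' values, the filter, the bound, eBayes settings, the title block, the sex term and leaving out arrays.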

Additional observations from a re-analysis of the deposited data

Results flagged for a closer look

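Within each sex, the highest or lowest animal of every tested gene was set against the others by Dixon's criterion at the 95% level. It marked 6 of 108 groups, and chance marks about 1 in 20. Gnat2, the cone transducin alpha subunit, was highest in male 3 at 6.35, with the next male at 5.12, and lowest among females in female 3 at 4.92, with the next at 5.28. Female 4 was the highest female for Rgs12, an RGS protein that also binds inactive alpha i, at 8.73 with the next at 8.07. It was the lowest for Pde1a, a calmodulin-activated phosphodiesterase, at 6.44 with the next at 6.89, and for Adcy3, the cyclase of neuronal cilia, at 7.97 with the next at 8.13. Gng13, a gamma subunit known from taste cells and retina, was lowest in female 3 at 5.16, with the next at 5.47. The score of 8 oligodendrocyte markers was also lowest in female 4, at -0.95 against -0.22 to 0.56 in the other females, and its part in these values was not tested.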

How the results depend on the processing

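The count of called genes was 0 under every alternative run, for the sexes and for the title numbers. Of 214 values for the 12 genes described by p between the sexes, 212 kept their direction, and the lowest adjusted p from limma was 0.847. The others were Gnat2, which with 1 animal left out ran from -0.16 without male 3 to 0.28 without male 2 and was 0.30 with the title block, and Pde8a, at -0.024 without female 1, male 2 and female 3; the cause was not tested. Pde1b ranged from -0.46 to -0.28, Gnal from -0.68 to -0.30, Gng7 from -0.42 to -0.13, Pde2a from -0.25 to -0.12, Pde9a from -0.28 to -0.08, Pde4d from -0.30 to -0.07 and Gng10 from 0.05 to 0.24. The count at an unadjusted p under 0.05 between the sexes, 2 in the report, was 1 with an offset of 50, 3 with no filter and 1 to 3 with 1 animal left out (1 without female 1, female 5, male 2 or male 4, and 3 without male 1). With the title number as a block it was 2, Pde1b and Gucy1b1 (-0.36, unadjusted p = 0.0351 in limma). Between title numbers that count, 6 in the report, was 0 without female 1, male 2 and female 3, 1 without the sex term, and 0 to 9 with 1 animal left out (0 without female 1, 2 without female 4, 3 without male 4, 9 without female 5). Where a title number was left with 1 animal, that animal was assumed to vary like the others. The lowest adjusted p over 108 title number values was 0.231. The number of genes exceeding the bound everywhere was 45 also at the 95th percentile, and their median SD was 0.18 without background correction and 0.19 in the authors' values. No paired analysis was possible because the labels give no replicate numbers shared by the sexes. Genes near the bound, such as Gnas, Gng8, Pde6c and Pde6h, have compressed differences, and the untested genes have only a bound.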

Other observations

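Several genes of the set lie side by side on a chromosome in RefSeq's order of genes (GRCr8). Rgs8 and Rgs16, Gna11 and Gna15, and Gnat2 and Gnai3 have 0 coding genes between them, and Gnaq and Gna14, Rgs2 and Rgs1, and Rgs1 and Rgs18 have 1. Except in the pair of Rgs1 and Rgs18, where neither exceeded the bound on any array, 1 gene of each pair exceeded it on all arrays and its neighbour on fewer. Gnaq was above the bound on 9 arrays and Gna14 on 3, and Rgs2 was above it on 9 and Rgs1 on 0. Rgs8 was above it on 9 arrays and Rgs16 on 0.

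The choroid plexus score was 1.96 in female 1 against -0.51 to 0.63 in the other females. Female 1 was highest for 10 of the 45 genes, among them Pde1b (7.26), Gnal (6.89), Gnai1 (7.97) and Gucy1b1 (11.02). Its striatal score, at 0.51, was also the highest of the animals. Gucy1b1 was next highest in female 3 (10.81) and male 2 (10.77), where the choroid plexus score was -0.31 and -0.42. The part of choroid plexus or striatal RNA in these values was not tested.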
